A study of Mus musculus with 27 samples.

Results

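The genes described here are 7 zinc-finger transcription factor genes of the mouse, namely the 4 spalt-like genes Sall1, Sall2, Sall3 and Sall4, the BTB-domain gene Zbtb16 (PLZF) and the odd-skipped related genes Osr1 and Osr2. They were picked by name from the 23279 genes of the deposited table, and their levels were read in all 9 groups of the study. The study compared limb bud-like tissue grown from embryonic stem (ES) cells with limb buds and other tissues of the embryo. ES–FLB and ES–HLB are mesenchyme of forelimb and hindlimb type organoids from the ES cell line EB5 Hand2::GFP +/-, sorted on day 9 for GFP. GFP marks cells that use Hand2, in the study a marker of the lateral plate mesoderm that limb bud, branchial arch and heart derive from. Both organoid types received BMP4 and Matrigel on days 1 to 5, and later the BMP inhibitor LDN193189 and Wnt3 in steps, for which the labels and the methods give different days. Per the study's methods, both were also kept in medium with hydrocortisone and methylcellulose from day 6.5. The forelimb type was given retinoic acid on days 5 to 6, and the hindlimb type a retinoic acid antagonist on days 6 to 6.5. The embryonic groups, all of strain Slc:ICR, are the early forelimb and hindlimb buds (early FLB and early HLB, labelled E10.0), the E10.5 FLB and E10.5 HLB, and 3 further tissues taken at E10.5, which are BA (branchial arch), TB (tail bud) and Ca (the heart, labelled cardiac). They were dissected, with no sorting named. The study's methods tie each tissue to a few embryos and the cells to pooled aggregates of 1 ES cell line, and do not say which libraries came from separate embryos or cultures, so the p-values measure only the spread between these libraries.

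SALL proteins are nuclear repressors with pairs of zinc fingers, and a short motif at their N-terminus binds the histone deacetylase complex NuRD. Sall1 and Sall4 are known for human syndromes with limb defects. Sall4 works with Tbx5 in the mouse forelimb and with Gli3 in the early hindlimb, and it is also part of the pluripotency network of ES cells. Sall2 is a broadly used family member, and Sall3 is close to Sall1 in sequence. Zbtb16 pairs a BTB repressor domain with C-terminal zinc fingers, and mice that lack it have patterning defects mainly in the hindlimb. Osr1 is an early marker of intermediate and lateral plate mesoderm that the kidney and heart need, and Osr1 and Osr2 later mark connective tissue cells of the limb. Osr2 is known for its role in the palate.

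The sequences below are given because they set the SALL genes and the OSR genes apart as families. The first 30 coding bases of 3 Sall genes (GRCm38, minus strand, first coding exon) encode the start of the NuRD-binding motif, and capitals mark the 19 bases that are the same in all of them:
Sall1: ATGTCgcGGaGgAAGCAagcGAagCCtCAa
Sall2: ATGTCtcGGcGaAAGCAacgGAgaCCcCAa
Sall4: ATGTCgaGGcGcAAGCAggcGAagCCcCAg
They lie at chr8:89042398-89042427, chr14:52328146-52328175 and chr2:168767000-168767029. The next pair begins the first zinc finger of the OSR proteins (plus strand), found by the spacing of its cysteine and histidine codons, and capitals mark the 23 of 30 bases shared:
Osr1: TGCAAGTTcTGtGGCcGcCACTTcACtAAg
Osr2: TGCAAGTTtTGcGGCaGaCACTTtACcAAa
They lie at chr12:9579657-9579686 and chr15:35300819-35300848. The longest run of identical bases between transcripts of any 2 of the 7 genes is 38, between Sall1 and Sall3. It is followed by 27 between Sall3 and Sall4 and 23 between Osr1 and Osr2.

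In the GENCODE annotation of GRCm38 all 7 are protein-coding genes. Sall1 spans chr8:89027235-89044162, Sall2 chr14:52311172-52328762, Sall4 chr2:168748332-168767943 and Zbtb16 chr9:48654297-48836222, all on the minus strand, and Sall3 is on chromosome 18. Osr1 spans chr12:9570116-9581500 and Osr2 chr15:35296098-35303305, both on the plus strand. Over 470 bases Osr1 overlaps the lncRNA gene 1700022H16Rik of the opposite strand, which is listed at 0 in every library used. Sall4 overlaps Gm14261 of the opposite strand over 1801 bases, and this gene has no row in the table. The sources used here do not state whether reads were counted by strand, so reads from the overlap of Sall4 cannot be assigned.

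Levels are CPM, reads of a gene divided by the library's total and brought to a common total of 1000000, as the authors deposited them, and then scaled between libraries. Of 27 libraries 26 were used. Replicate 2 of the E10.5 HLBs was left out because nearly all genes of chromosomes 5, 6, 7, 8, 9, X and Y and the end of chromosome 4 are listed at 0 in it, Sall1 and Zbtb16 among them. The spacing of low values gave 5543754 to 22142331 reads a library, and 3 reads were worth 0.136 to 0.541 CPM, the floor below which a level cannot be told from 0 (counting error only). The early limb buds had 19642265 to 22142331 reads and the E10.5 limb buds 5543754 to 5908844. The markers fitted the labels of Ca, TB and BA, with the summed CPM of 6 cardiomyocyte genes at 10210 to 12230 in Ca, of 5 tail bud progenitor genes at 231 to 281 in TB and of 5 branchial arch mesenchyme genes at 402 to 421 in BA. The 7 limb mesenchyme genes summed to 717 to 1046 CPM in the ES–LBs and to 639 to 1332 in the embryonic limb buds. The sum was 838.7 to 895.5 in BA, so it does not set limb apart from arch. Within the list, mean Prrx1 was 460.2 in ES–FLB, 644.9 in ES–HLB and 566.5 in BA. Mean Lmx1b was 1.107 in ES–FLB and 0.7252 in ES–HLB, against 24.23 to 44.46 in the limb bud groups. For Pax2, Pax8 and Lhx1, markers of the nephric lineage that early Osr1 also marks, the summed CPM were 0.519 to 0.731 in ES–FLB and 1.56 to 2.56 in ES–HLB, against 0.174 to 0.828 in E10.5 FLB, 0.176 to 0.181 in E10.5 HLB, 2.60 to 4.96 in early FLB and 0.197 to 0.327 in early HLB.

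Sall1 was highest in the tail bud and lowest in the branchial arch. Its CPM were 256.8, 281.4 and 267.3 in the 3 TB libraries and 11.1, 12.7 and 16.4 in the BA libraries, a ratio of the group means of 20.02. The E10.5 limb buds came next, at 121.1, 116.3 and 98.3 in FLB and 123.6 and 121.5 in HLB. The early buds lay at about the level of the cultured forelimb type, with 54.6, 54.5 and 55.9 in early FLB, 64.5, 54.6 and 60.3 in early HLB, and 58.6, 54.9 and 56.8 in ES–FLB. ES–HLB stood above these at 80.0, 81.2 and 76.5, and Ca below at 53.2, 46.5 and 47.0. Neighbours in this order that overlapped were early HLB with ES–FLB and ES–FLB with early FLB.

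Sall2 varied least of the 6 genes detected in all groups, with a ratio of 2.68 between the highest and the lowest group mean. Its CPM were 124.0, 124.6 and 130.0 in BA, 120.7, 116.4 and 120.8 in ES–FLB, and 116.6, 111.8 and 111.1 in TB. E10.5 FLB had 112.1, 113.0 and 111.7, ES–HLB 111.5, 96.1 and 107.3, and E10.5 HLB 96.8 and 105.6. These 6 groups lay between 96.1 and 130.0, and the early buds and the heart lay below them. The values there were 82.9, 80.9 and 78.6 in early HLB, 74.4, 65.9 and 69.0 in early FLB, and 41.6, 46.4 and 53.4 in Ca.

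Sall3 separated the embryonic limb buds and tail bud from the cultured cells. Its CPM were 45.1, 54.2 and 52.3 in TB, 49.8, 41.6 and 41.5 in E10.5 FLB, and 40.0 and 48.0 in E10.5 HLB. Early FLB had 42.0, 39.9 and 31.7 and early HLB 31.6, 23.4 and 27.4. Those 5 groups and Ca, at 12, 9.02 and 10.4, did not overlap the ES–LBs. ES–FLB had 2.31, 1.82 and 2.56 and ES–HLB 5.36, 3.85 and 2.63, and in BA, the lowest group, the values were 1.35, 1.05 and 0.829.

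Sall4 was also highest in the tail bud, at 119.2, 129.5 and 138.2 CPM, but unlike Sall1 its next groups were the early buds, not those of E10.5. Early FLB had 87.6, 87.1 and 76.3 and early HLB 62.8, 69.0 and 77.5, and these groups overlapped. E10.5 HLB had 43.8 and 43.7, above E10.5 FLB at 20.4, 26.7 and 25.4. Below lay BA at 19.6, 20.2 and 19.3, ES–HLB at 18.5, 19.2 and 17.2, Ca at 10.2, 13.4 and 9.84, and ES–FLB at 5.47, 6.10 and 7.31. Apart from the early buds, no neighbours in this order overlapped.

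Zbtb16 was highest in the early hindlimb bud, at 46.3, 42.9 and 54.6 CPM, followed by early FLB at 40.2, 35.4 and 29.7. E10.5 HLB had 29.3 and 29.5, TB 28.7, 27.1 and 28.3, and ES–HLB 21.2, 21.1 and 19.9. E10.5 FLB, at 13.9, 19.2 and 18.8, overlapped BA at 14.2, 14.7 and 15.1. ES–FLB had 7.78, 6.88 and 9.38. The heart was lowest at 3.0, 3.38 and 1.64, and the ratio of early HLB to Ca was 17.9.

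Osr1 was highest in the ES–LBs and lowest in the early buds. It had 72.3, 79.7 and 76.5 CPM in ES–FLB and 51.2, 52.3 and 58.4 in ES–HLB. BA followed at 39.9, 41.3 and 48.5, then E10.5 FLB at 31.5, 25.7 and 26.2 and E10.5 HLB at 12.7 and 12.9. Ca, at 5.09, 8.45 and 11.5, overlapped TB at 10.2, 4.90 and 6.09. The early buds were lowest and overlapped each other, with 4.34, 2.91 and 2.51 in HLB and 2.56, 2.65 and 2.43 in FLB, and ES–FLB was 29.9 times early FLB in group means.

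Osr2 was highest in both forelimb groups other than the early one, with 31.0, 35.2 and 37.7 CPM in ES–FLB, which overlapped E10.5 FLB at 31.8, 31.0 and 32.9. ES–HLB had 27.2, 29.5 and 29.0, E10.5 HLB 13.9 and 16.4, and BA 12.6, 12.01 and 12.3. TB had 2.51, 2.102 and 2.99 and early HLB 1.53, 0.880 and 0.872. Osr2 was close to the floor in early FLB, at 0.460, 0.599 and 0.103, and was not told from 0 in the heart, where a single read was found over the 3 Ca libraries.

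**Figure D1:**
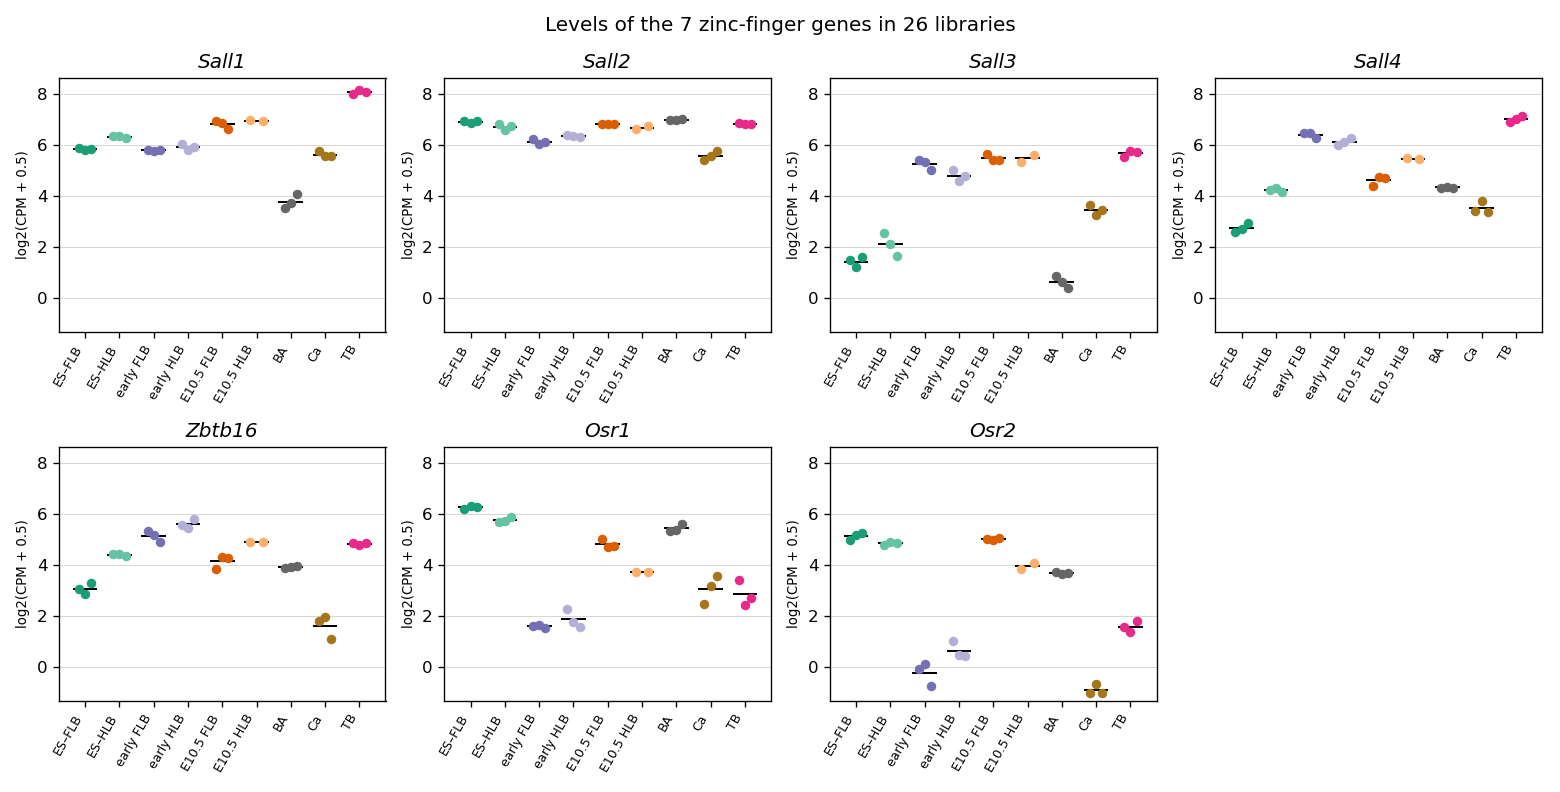
Level of each of the 7 genes in every library used, as log2(scaled CPM + 0.5) on the vertical axis, with the 9 groups on the horizontal axis. Points are libraries (n = 3 a group, 2 for E10.5 HLB) and bars are group means. Sall1 and Sall4 peak in TB, Sall2 is nearly level, Sall3 is low in the ES–LBs and BA, and both Osr genes are high in the ES–LBs and low in the early buds.

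Between genes, levels were compared per kb of the transcript with the longest coding sequence. On that scale Sall2 made up most of the Sall family in BA, at 78.9% ± 0.73 (SD, n = 3) of the summed CPM per kb, and in ES–FLB, at 65.3% ± 0.24 (n = 3). In ES–HLB its share was 51.4% ± 2.5 (n = 3), in E10.5 FLB 40.4% ± 1.8 (n = 3) and in E10.5 HLB 34.02% ± 1.1 (n = 2). Sall4 held the largest share in early FLB, 36.0% ± 1.4 (n = 3), and 3.49% ± 0.50 (n = 3) in ES–FLB. Sall1 held 48.3% ± 0.95 (n = 3) in TB, where the family sum was also highest, 105.6 ± 3.8 CPM per kb (n = 3). The sum was 54.1 ± 2.5 (n = 3) in E10.5 FLB and 57.8 ± 1.7 (n = 2) in E10.5 HLB, against 35.5 ± 0.88 in ES–FLB and 39.6 ± 1.5 in ES–HLB (n = 3 each). Ca, at 22.1 ± 0.52 (n = 3), had the lowest sum.

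**Figure D2:**
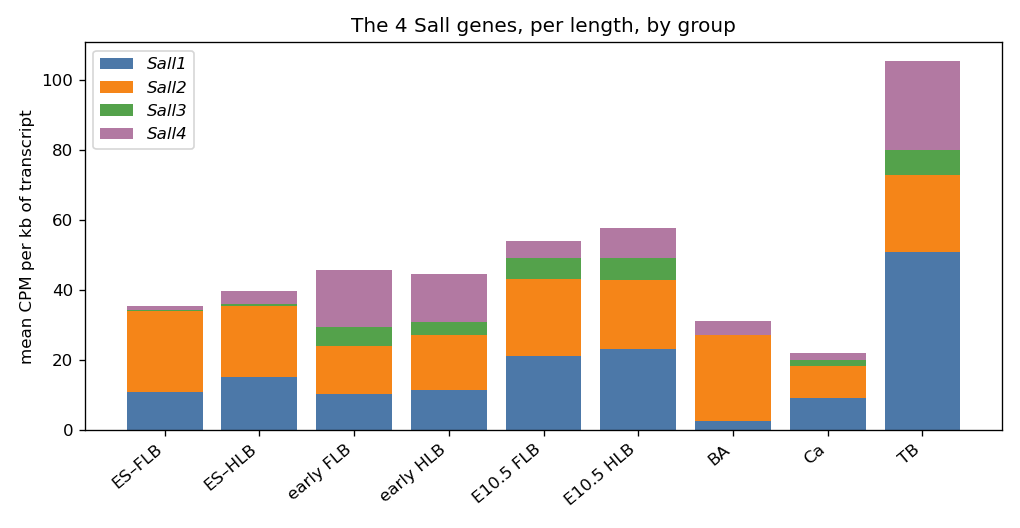
Mean level of the 4 Sall genes per group, in scaled CPM per kb of transcript, stacked so that the height of a bar is the family sum (n = 3 libraries a group, 2 for E10.5 HLB, no error drawn). The bar of TB reaches 105.6 and that of Ca 22.1, and the Sall3 and Sall4 parts of the ES–FLB bar are thin.

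The balance of the Osr pair also differed between groups. Per kb of transcript the ratio of Osr1 to Osr2 was 1.53, 1.49 and 1.34 in the ES–FLB libraries and 1.24, 1.17 and 1.33 in ES–HLB. It was 0.651, 0.545 and 0.522 in E10.5 FLB and 0.598 and 0.517 in E10.5 HLB, so Osr2 exceeded Osr1 in all 5 E10.5 limb bud libraries and Osr1 exceeded Osr2 in all 6 ES–LB libraries. With the longest coding transcript of each gene the ratios were 1.52 to 2.00 in the ES–LBs and 0.673 to 0.848 in the E10.5 limb buds. Osr1 exceeded Osr2 in the other embryonic groups with a ratio as well, at 2.08 to 2.59 in BA, 1.34 to 2.67 in TB and 1.87 to 3.66 in the 5 early bud libraries where Osr2 was above the floor.

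Whether the genes differ between hindlimb and forelimb was asked first in culture. Limb type and the treatment with retinoic acid or its antagonist cannot be told apart there. All 7 genes passed the test (limma, adjusted p below 0.05 over all genes tested) between ES–HLB and ES–FLB, 4 of them higher and 3 lower in ES–HLB, where 25.1% of all 13132 genes tested passed (13.1% higher, 12% lower). Sall4 and Zbtb16 rose most, by 1.48 ± 0.13 (SE) on the log2 scale (2.79-fold, adjusted p = 2.51e-10) and by 1.33 ± 0.13 (2.51-fold, adjusted p = 6.45e-10). The ranges of ES–FLB and ES–HLB did not overlap for either gene, but the share of all genes without overlap was not counted. Sall1 rose by 0.48 ± 0.062 (1.39-fold, adjusted p = 3.4e-07). Osr1 fell by 0.49 ± 0.067 on the log2 scale (adjusted p = 7.1e-07), but with the spread taken from all 26 libraries its adjusted p was 0.15. Fold changes here and below are on the log2(CPM + 0.5) scale, which understates changes of low genes.

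The other 3 genes changed little or rested on single libraries. Sall2 fell by 0.19 ± 0.056 (adjusted p = 0.0128), and without ES–HLB replicate 2 its adjusted p was 0.109. Osr2 fell by 0.27 ± 0.086 (adjusted p = 0.0198), with adjusted p of 0.0657 and 0.144 without ES–FLB replicates 2 and 3 and 0.0808 without ES–HLB replicate 1, and of 0.351 with the spread of all 26 libraries. Sall3 rose by 0.67 ± 0.23 (adjusted p = 0.0315) from the low level given above, and leaving out ES–FLB replicates 1 or 2 or ES–HLB replicates 1 or 2 gave adjusted p of 0.0575, 0.127, 0.246 and 0.0747. Like Sall4, the genes of the pluripotency list were at a higher level in ES–HLB, and their part in the Sall4 result was not tested. Of 11 such genes 10 rose and 1 fell, where 25.1% of all genes passed, with a median of 1.94 against 0.0049 for all genes. The list gene Dppa4 averaged 0.9987 CPM in ES–FLB and passed the filter through ES–HLB alone. Its rise, among the 10, was bound to follow. Tdgf1 is among the 10 too, and its deposited ES–HLB values equal those of Nanog. The ES cell factor gene Pou5f1 had 4.11 ± 1.36 CPM in ES–FLB and 17.0 ± 4.1 in ES–HLB, and Nanog 2.52 ± 0.79 and 9.11 ± 2.33 (SD, n = 3 each). Klf4, also a factor of ES cells, fell by 1.31 ± 0.067 (adjusted p = 5.92e-16), from 93.98 ± 5.4 to 37.6 ± 2.1 CPM. The summed epithelial markers were 102.5 to 154.5 CPM in ES–FLB and 190.7 to 204.2 in ES–HLB. In bulk RNA, fewer cells that express a gene and less RNA per cell cannot be told apart.

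In the E10.5 embryo, 4 of the 7 genes differed between HLB and FLB (2 higher and 2 lower, against 24.1% of all genes, 12% in each direction). Sall4 was higher in HLB by 0.85 ± 0.11 (1.81-fold, adjusted p = 7.71e-09) and Zbtb16 by 0.76 ± 0.13 (1.70-fold, adjusted p = 5.96e-06, but 0.0615 without variance trend and robust estimation). Osr1 was lower in HLB by 1.09 ± 0.13 and Osr2 by 1.05 ± 0.12, about 2.1-fold each (adjusted p = 6.97e-10 and 1.67e-10). None of these 4 genes overlapped between the FLB and HLB libraries. This adds nothing to the test, since the same libraries gave both, and the share of all genes without overlap was not counted. Sall1 (0.14 ± 0.067, adjusted p = 0.138), Sall2 (-0.15 ± 0.062, adjusted p = 0.0702) and Sall3 (-0.011 ± 0.094, adjusted p = 0.952) did not pass. Without E10.5 HLB replicate 3, Sall2 passed (-0.21, adjusted p = 0.0358). The pluripotency list gave 1 gene higher and 1 lower of 2 tested, where the RNA-binding gene Lin28a had 9.89 ± 3.25 CPM in FLB (n = 3) and 99.3 ± 11.8 in HLB (n = 2), while Pou5f1 and Nanog stayed below 0.2 CPM in group mean.

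In the early buds 4 of 6 genes tested passed between HLB and FLB, 2 higher and 2 lower, against 20.3% of all genes (9.35% higher, 11% lower), but no more than 2 passed whenever 1 of the 6 libraries was left out, and none passed without early FLB replicate 2. Sall2 (0.21 ± 0.057, adjusted p = 0.0242) and Zbtb16 (0.45 ± 0.12, adjusted p = 0.0378) were higher in early HLB. Sall3 (-0.46 ± 0.13, adjusted p = 0.0451) and Sall4 (-0.26 ± 0.082, adjusted p = 0.0488) were lower. The labels give 1 stage for both early buds and the study's figure legend gives 2, so stage and limb type cannot be told apart here. Osr2 was too low to be tested.

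The difference between hindlimb and forelimb was itself compared between culture and the early buds in one model of 12 libraries. The 6 genes that were tested in the early buds all passed, 4 with a higher and 2 with a lower value in culture, against 22.7% of all genes (12.8% higher, 9.96% lower). The hindlimb excess in culture exceeded that in the early buds by 1.74 ± 0.14 for Sall4 (adjusted p = 2.06e-08), by 1.13 ± 0.27 for Sall3 (adjusted p = 0.00707), by 0.88 ± 0.17 for Zbtb16 (adjusted p = 0.000733) and by 0.36 ± 0.087 for Sall1 (adjusted p = 0.00488). It was lower in culture for Osr1 (-0.77 ± 0.19, adjusted p = 0.00488) and Sall2 (-0.40 ± 0.084, adjusted p = 0.00158). With the spread of all 26 libraries the adjusted p was 0.0519 for Sall1 and 0.109 for Osr1. Osr2 entered this model only through the ES–LBs, and its value (-1.14 ± 0.28) rests on early bud levels near the floor and ranged from -1.70 to -0.86 over the alternatives, so it is not counted. The open stage of the early buds touches these differences too, and so does the retinoic acid treatment in culture.

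**Figure D3:**
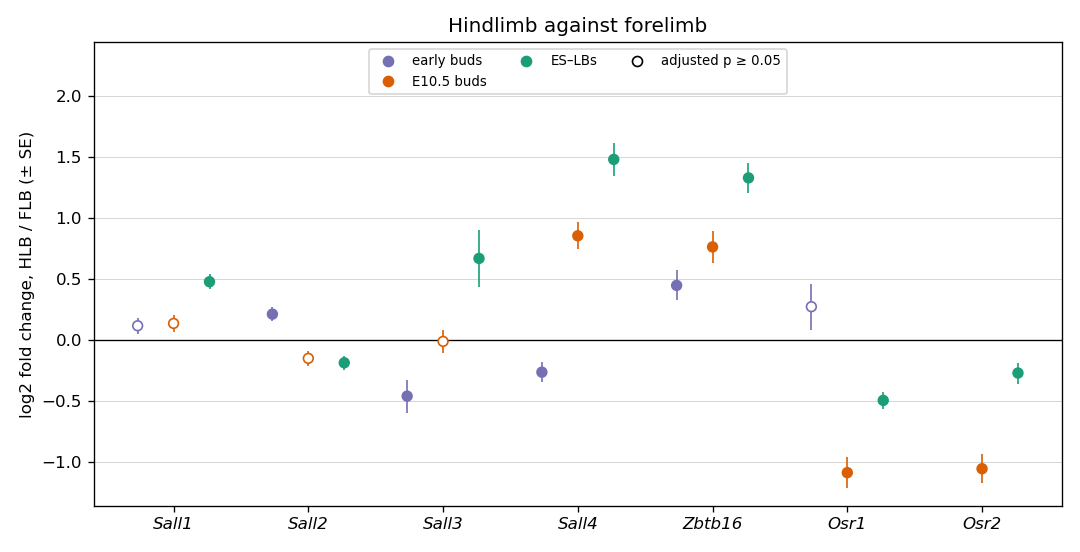
Log2 fold change of HLB over FLB (vertical axis, with SE) for each gene in the early buds, the E10.5 buds and the ES–LBs. Open circles did not pass at an adjusted p of 0.05, and Osr2 was not tested in the early buds. Sall4 and Zbtb16 lie above 0 and the Osr genes below 0 in both the E10.5 buds and the ES–LBs.

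From the early to the E10.5 forelimb bud, 6 of the 7 genes changed, 4 upwards and 2 downwards, where 64.8% of all genes did (30.2% upwards, 34.6% downwards). Osr2 rose by 5.24 ± 0.20 on the log2 scale (adjusted p = 1.12e-12) and Osr1 by 3.21 ± 0.13 (9.25-fold, adjusted p = 1.85e-12). Sall1 doubled (1.01 ± 0.069, adjusted p = 1.63e-09) and Sall2 rose by 0.68 ± 0.056 (adjusted p = 1.13e-08). Sall4 fell by 1.78 ± 0.094 (3.43-fold, adjusted p = 8.18e-10) and Zbtb16 by 1.00 ± 0.14 (2.01-fold, adjusted p = 4.69e-05). Sall3 was at 0.23 ± 0.11 (adjusted p = 0.0751), and without early FLB replicate 1 it passed (0.31, adjusted p = 0.0253), as it did with CPM as deposited (0.39, adjusted p = 0.00413), where the median of all genes moves by 0.163. Osr2 passed the filter on low values only through the E10.5 buds, here and in the hindlimb bud, so its call was bound to follow and its size depends on levels near the floor. It is in the count of 6 above.

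In the hindlimb bud all 7 genes changed with stage, 5 upwards and 2 downwards, where 28.8% of all genes did (12.2% upwards, 16.7% downwards). Osr2 is in this count although its call was bound to follow. The rises were 3.32 ± 0.23 for Osr2 (adjusted p = 1.34e-05), 1.85 ± 0.21 for Osr1 (adjusted p = 0.000244) and 1.03 ± 0.076 for Sall1 (adjusted p = 1.76e-05). Sall4 fell by 0.66 ± 0.088 (adjusted p = 0.000478) and Zbtb16 by 0.69 ± 0.10 (adjusted p = 0.000785). Sall3 rose by 0.68 ± 0.13 (adjusted p = 0.00368) and Sall2 by 0.32 ± 0.064 (adjusted p = 0.00414), and neither passed without E10.5 HLB replicate 3 (adjusted p = 0.0696 and 0.0574), which left 5 genes. The stage and the depth moved together, since the early libraries held over 3 times the reads of the E10.5 libraries, and their parts cannot be told apart.

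The stage change differed between the limbs for 4 genes, 1 higher and 3 lower in the hindlimb bud, against 22.6% of all genes (11.9% higher, 10.7% lower). Osr2, which entered through the E10.5 buds alone, is in this count. Sall4 fell less in the hindlimb bud, by a difference of 1.12 ± 0.14 (adjusted p = 5.8e-05). Osr1 and Osr2 rose less there, with differences of -1.36 ± 0.24 (adjusted p = 0.000621) and -1.92 ± 0.32 (adjusted p = 0.000357, for Osr2 again from early levels near the floor), and so did Sall2 (-0.36 ± 0.084, adjusted p = 0.0046). The difference was 0.018 ± 0.11 for Sall1 (adjusted p = 0.923), 0.32 ± 0.20 for Zbtb16 (adjusted p = 0.28) and 0.45 ± 0.19 for Sall3 (adjusted p = 0.113). Sall3 passed without early FLB replicate 3 (0.57, adjusted p = 0.0226) and without early HLB replicate 1 (0.55, adjusted p = 0.0397).

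Against E10.5 limb buds, the cultured cells had less Sall3, Sall4, Sall1 and Zbtb16 and more Osr1. For ES–FLB 5 of the 7 genes passed (1 higher, 4 lower), and for ES–HLB 6 (2 higher, 4 lower), where 71.7% (35.4% higher, 36.3% lower) and 71.8% (37.0% higher, 34.8% lower) of all genes did, so these counts are near the background. Sall3 was lower by 4.04 ± 0.15 in ES–FLB (16.5-fold, adjusted p = 3.06e-19) and by 3.36 ± 0.20 in ES–HLB (10.3-fold, adjusted p = 1.74e-13). Sall4 was lower by 1.86 ± 0.14 (3.63-fold, adjusted p = 2.89e-12) in ES–FLB and by 1.23 ± 0.11 (2.35-fold, adjusted p = 2.7e-12) in ES–HLB. Sall1 was lower by 0.97 ± 0.067 (adjusted p = 8.84e-13) and 0.63 ± 0.066 (adjusted p = 2.38e-10), and Zbtb16 by 1.06 ± 0.15 (adjusted p = 3.85e-07) and 0.49 ± 0.11 (adjusted p = 0.000175). Osr1 was higher by 1.44 ± 0.080 in ES–FLB (2.72-fold, adjusted p = 4.96e-15) and by 2.04 ± 0.10 in ES–HLB (4.10-fold, adjusted p = 9.79e-19). Osr2 was higher in ES–HLB (0.90 ± 0.12, adjusted p = 2.75e-08) and stood at 0.11 ± 0.087 in ES–FLB (adjusted p = 0.253). Sall2 stood at 0.087 ± 0.049 (adjusted p = 0.115) and 0.051 ± 0.069 (adjusted p = 0.513), and passed in both with CPM as deposited (0.14, adjusted p = 0.0107 and 0.16, adjusted p = 0.0386).

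The cultured cells were sorted and the embryonic buds were not, and markers of other cells moved with this contrast. The 6 endothelial markers summed to 25.4 to 43.7 CPM in the ES–LBs and 294 to 336 in the E10.5 buds, the 6 erythroid markers to 5.48 to 169 and 2702 to 4052, and the 7 epithelial markers to 102.5 to 204.2 and 260.5 to 290.2. Every one of those endothelial and epithelial markers still reached 1 CPM in both ES–LB groups. Their part in the results was not tested.

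Against the early buds the cultured cells again had more Osr1 and less Sall3, Sall4 and Zbtb16. ES–FLB differed from early FLB in 6 genes, 3 in each direction, where 82.1% of all genes passed (41.1% higher, 41.0% lower). ES–HLB differed from early HLB in 7, 4 higher and 3 lower, where 78.6% passed (39.6% higher, 38.9% lower). Osr1 was higher by 4.65 ± 0.097 (25.2-fold, adjusted p = 1.02e-15) and 3.89 ± 0.16 (14.8-fold, adjusted p = 8.94e-11), and Osr2 by 5.35 ± 0.20 (adjusted p = 2.85e-12) and 4.21 ± 0.17 (adjusted p = 2.86e-11). Sall3 was lower by 3.81 ± 0.14 and 2.69 ± 0.21 (adjusted p = 4.61e-13 and 4.95e-07), Sall4 by 3.64 ± 0.10 and 1.90 ± 0.087 (adjusted p = 2.62e-14 and 9.9e-11), and Zbtb16 by 2.06 ± 0.13 and 1.18 ± 0.092 (adjusted p = 8.35e-10 and 2.32e-08). Sall2 was higher in both, by 0.77 ± 0.056 and 0.37 ± 0.062 (adjusted p = 1.67e-09 and 7e-05). Sall1 was higher in ES–HLB (0.41 ± 0.068, adjusted p = 7.09e-05), and in ES–FLB it stood at 0.046 ± 0.058 (adjusted p = 0.469), but passed with CPM as deposited (0.27, adjusted p = 0.000502), a scaling that moves the median of all genes by 0.221. Osr2 entered both contrasts through the ES–LBs alone, so its calls were bound to follow, and it is in both counts. These contrasts share the early bud libraries, and depth moved with them too.

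**Figure D4:**
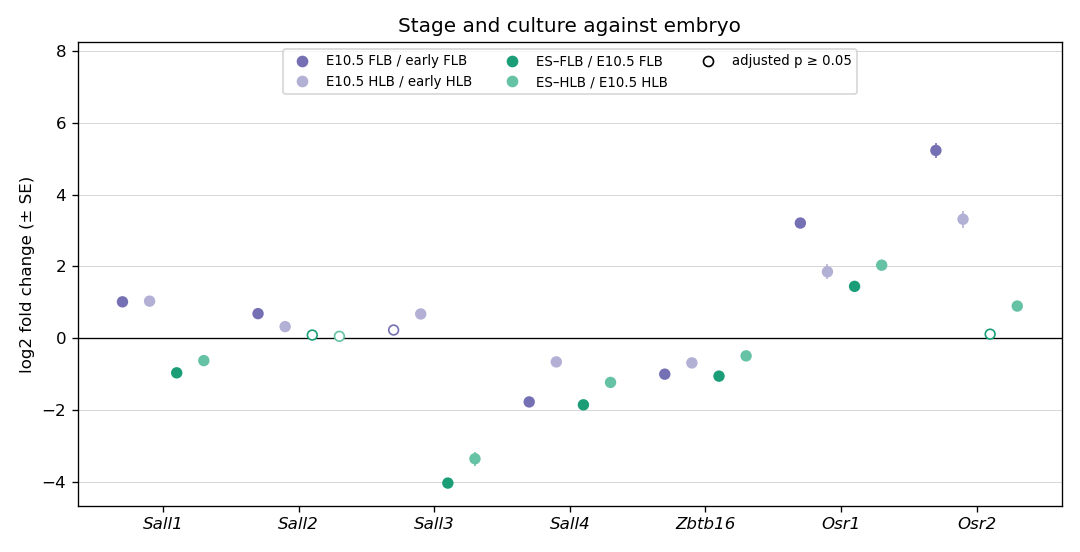
Log2 fold changes with SE (vertical axis) of the 7 genes from the early to the E10.5 buds and of the ES–LBs over the E10.5 buds of the same limb type. Open circles did not pass at an adjusted p of 0.05. Sall3 lies lowest for the ES–LBs, at -4.04 and -3.36, and the Osr genes highest for stage.

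Among E10.5 tissues, which were set against the mean of the 2 limb buds in one model of all 26 libraries, the tail bud stood out for Sall4 and Sall1. Of the 7 genes 4 passed there, 2 higher and 2 lower, against 46.0% of all genes (23.5% higher, 22.5% lower). Sall4 was higher in TB by 1.97 ± 0.098 (3.93-fold, adjusted p = 4.04e-17) and Sall1 by 1.196 ± 0.083 (2.29-fold, adjusted p = 2.02e-12). Osr2 was lower by 2.90 ± 0.17 (7.47-fold, adjusted p = 1.07e-15) and Osr1 by 1.42 ± 0.21 (2.67-fold, adjusted p = 8.94e-06). Sall2 (0.086 ± 0.059, adjusted p = 0.241) and Sall3 (0.19 ± 0.16, adjusted p = 0.327) did not pass. Zbtb16 (0.31 ± 0.14, adjusted p = 0.0747) passed when Ca replicate 2 or 3 was left out of the shared spread (adjusted p = 0.0467 and 0.0164). The 6 neural markers summed to 94.1 to 115 CPM in TB and 8.11 to 16.7 in the E10.5 buds, and the 5 muscle progenitor markers to 98.1 to 112 and 20.1 to 43.2, and their part was not tested.

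In the branchial arch all 7 genes passed, 2 higher and 5 lower, against 32.7% of all genes (17.1% higher, 15.6% lower). Sall3 was lower by 4.83 ± 0.16 (28.4-fold, adjusted p = 3.01e-20) and Sall1 by 3.10 ± 0.083 (8.55-fold, adjusted p = 1.38e-21). Osr1 was higher by 1.17 ± 0.21 (2.26-fold, adjusted p = 0.000162) while Osr2 was lower by 0.81 ± 0.17 (adjusted p = 0.000277). Sall4 and Zbtb16 were lower by 0.71 ± 0.098 and 0.60 ± 0.14 (adjusted p = 9.13e-07 and 0.00186), and Sall2 higher by 0.24 ± 0.059 (adjusted p = 0.00172).

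In the heart all 7 genes were lower than in the limb buds, where 76.8% of all genes passed, 38.8% lower and 38.0% higher. Zbtb16 was lower by 2.90 ± 0.14 (7.46-fold, adjusted p = 1.11e-16), Sall3 by 2.03 ± 0.16 (4.08-fold, adjusted p = 1.43e-12) and Sall4 by 1.51 ± 0.098 (adjusted p = 3.4e-15). The log2 difference was -1.25 ± 0.083 for Sall1 (adjusted p = 9.86e-14), -1.197 ± 0.21 for Osr1 (adjusted p = 2.34e-05) and -1.18 ± 0.059 for Sall2 (adjusted p = 3.27e-18). For Osr2, which is counted among the 7 (adjusted p = 9.15e-24), a fitted fold has no meaning, since Ca held 1 read. On the reads, the ratio of E10.5 FLB to Ca was 704.5 (95% counting interval 125.9 to 27880) and that of E10.5 HLB to Ca 335.2 (59.4 to 13320). The erythroid markers summed to 24290 to 35320 CPM in Ca and 2702 to 4052 in the E10.5 buds, and the endothelial markers to 906 to 975 and 294 to 336, and their part was not tested.

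**Figure D5:**
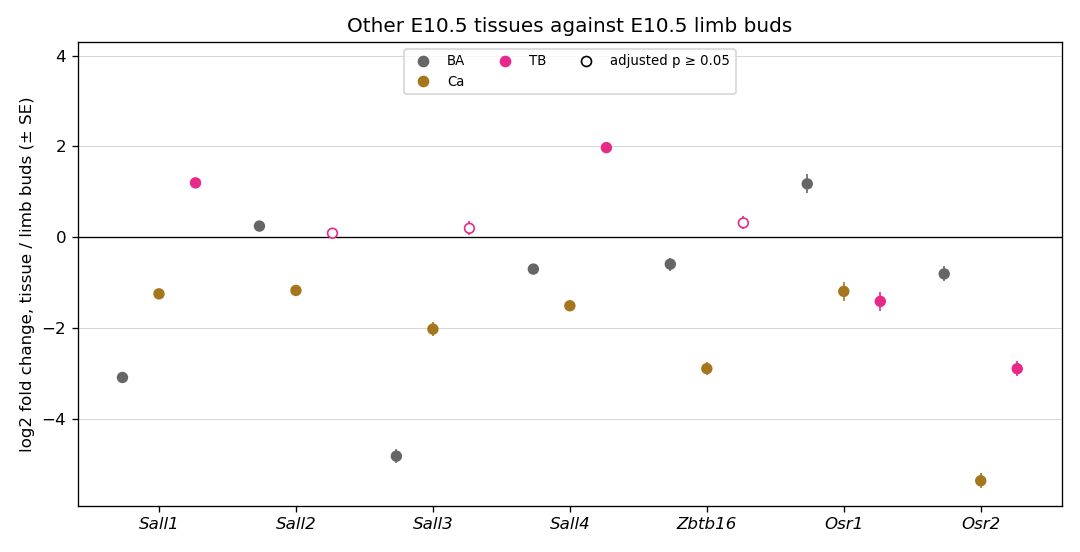
Log2 fold change with SE (vertical axis) of each gene in BA, Ca and TB over the mean of the E10.5 limb buds. Open circles did not pass at an adjusted p of 0.05, and the Ca value of Osr2 rests on 1 read. Sall1 and Sall4 are above 0 in TB, every gene is below 0 in Ca, and Sall1 and Sall3 are lowest in BA.

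The same model set the mean of both ES–LB types against each of these tissues. Against BA 6 genes passed, 4 higher and 2 lower, where 69.6% of all genes did (34.2% higher, 35.4% lower), with Sall1 higher by 2.30 ± 0.080 (4.92-fold, adjusted p = 1.94e-19), Osr2 by 1.31 ± 0.16 (adjusted p = 1.18e-08), Sall3 by 1.13 ± 0.15 (adjusted p = 1.5e-07) and Osr1 by 0.57 ± 0.20 (adjusted p = 0.0159). Sall4 was lower by 0.84 ± 0.094 (adjusted p = 2.4e-09) and Sall2 by 0.17 ± 0.057 (adjusted p = 0.00733), and Zbtb16 stood at -0.18 ± 0.14 (adjusted p = 0.243). Osr1 did not pass without BA replicate 1 or 2 (adjusted p = 0.0628 and 0.0543).

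Against Ca 6 genes passed, 5 higher and 1 lower, where 81.0% of all genes did (41.8% higher, 39.2% lower). Osr1 was higher by 2.94 ± 0.20 (7.66-fold, adjusted p = 1.34e-11), Zbtb16 by 2.12 ± 0.14 (adjusted p = 4.02e-14), Sall2 by 1.25 ± 0.057 (adjusted p = 1.88e-19) and Sall1 by 0.45 ± 0.080 (adjusted p = 9.38e-06). Osr2 was higher over its single read (adjusted p = 2.1e-25), Sall3 was lower by 1.67 ± 0.15 (adjusted p = 3.34e-11), and Sall4 stood at -0.032 ± 0.094 (adjusted p = 0.756). Against TB 6 genes passed, 2 higher and 4 lower, where 76.2% of all genes did (37.4% higher, 38.8% lower). The log2 difference was -3.90 ± 0.15 for Sall3 (adjusted p = 3.06e-19), -3.52 ± 0.094 for Sall4 (adjusted p = 1.55e-24), -1.99 ± 0.080 for Sall1 (adjusted p = 2.07e-18) and -1.09 ± 0.14 for Zbtb16 (adjusted p = 4.95e-08). Osr2 and Osr1 were higher by 3.41 ± 0.16 and 3.157 ± 0.20 (adjusted p = 1.2e-18 and 6.1e-12), and Sall2 stood at -0.017 ± 0.057 (adjusted p = 0.789). The ES–LBs thus lay on opposite sides of the tail bud for the Osr genes and for Sall1, Sall3, Sall4 and Zbtb16.

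Genes known to work with these factors were read from 4 lists. Among 14 NuRD genes, whose complex SALL proteins bind, 1 was higher and 1 lower in ES–HLB than in ES–FLB (25.1% of all genes passed). Chd3, a chromatin remodeler of the complex, fell by 0.36 ± 0.032 (adjusted p = 2.68e-10), while Mbd2 was at 0.20 ± 0.082 (adjusted p = 0.0759). Between E10.5 HLB and FLB 3 of 13 tested were higher and 1 lower, against 24.1% of all genes. The values went from -0.43 ± 0.049 for Chd3 (adjusted p = 6.42e-10) to 0.25 ± 0.043 for the histone-binding gene Rbbp7 (adjusted p = 1.03e-05). Chd3 also rose most with stage in the forelimb bud, by 2.73 ± 0.058 (adjusted p = 2.11e-15), from 51.4 ± 2.7 to 344 ± 26 CPM (SD, n = 3 each). Of 13 tested there, 1 rose and 6 fell, where 64.8% of all genes changed. Against E10.5 limb buds, 4 of 14 were higher and 7 lower in ES–FLB, and 4 higher and 8 lower in ES–HLB, close to the 71.7% and 71.8% of all genes that passed there.

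Of 12 limb genes tied to Sall genes and Zbtb16 by mouse genetics, none was higher and 10 were lower in ES–FLB than in E10.5 FLB (median -1.92, against -0.0084 for all genes, of which 36.3% were lower), and 1 was higher and 11 lower in ES–HLB than in E10.5 HLB (median -2.50, against 0.024 for all genes, of which 34.8% were lower). The digit-patterning gene Hoxd10 had the lowest value in ES–FLB (-6.14 ± 0.17, adjusted p = 3.15e-21), close to Hoxd13 (-6.126) and Hoxd12 (-6.01). Hoxd10, Hoxd11, Hoxd12 and Fgf8 had means of 0.5736, 0.5384, 0.9958 and 0.08124 CPM in ES–FLB and passed the filter through E10.5 FLB alone. Their calls, among the 10 lower, were bound to follow, and their sizes depend on levels near or below the floor. Grem1, a BMP antagonist, stood at -0.014 ± 0.11 (adjusted p = 0.914). In ES–HLB the ridge signal gene Fgf8 was lowest (-4.78 ± 0.22, adjusted p = 8.75e-20), at a low mean of 1.01 CPM. Tbx5, the forelimb T-box gene, was lowest of the list in hindlimb against forelimb both in culture (-4.31 ± 0.14, adjusted p = 8.01e-19) and at E10.5 (-7.91 ± 0.13, adjusted p = 1.88e-49). Tbx5 was at 0.1786 CPM in E10.5 HLB, below the floor, and passed the filter through E10.5 FLB alone. Its E10.5 call, among the 5 lower there, was bound to follow, and its size depends on the pseudocount. Its hindlimb counterpart Tbx4 was highest in both (4.14 ± 0.45, adjusted p = 0.00393 and 3.76 ± 0.097, adjusted p = 2.14e-39). In these contrasts 7 of 11 tested were higher and 4 lower in culture, where 25.1% of all genes passed. At E10.5, 5 of 12 were higher and 5 lower, where 24.1% of all genes passed.

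The 12 nephric and intermediate mesoderm genes, partners of Osr1 and Sall1 in the kidney, gave 6 higher and 2 lower of 9 tested both for ES–FLB and for ES–HLB against E10.5 limb buds, where 71.7% and 71.8% of all genes passed. Of all genes 35.4% and 37.0% were higher and 36.3% and 34.8% lower. Six2, a gene of kidney progenitors, was the highest, by 2.30 ± 0.25 (adjusted p = 0.000323) and 3.64 ± 0.16 (adjusted p = 1.19e-20), with 60.5 ± 5.9 CPM in ES–FLB and 33.6 ± 3.8 in ES–HLB (SD, n = 3 each). Emx2, a homeobox gene, was the lowest (-2.79 ± 0.18, adjusted p = 1.09e-10 and -4.01 ± 0.24, adjusted p = 1.85e-16). Between E10.5 HLB and FLB none of 9 tested was higher and 6 were lower, with Six2 lowest (-2.18 ± 0.23, adjusted p = 2.5e-11). The pluripotency genes near Sall4 gave 2 of 11 higher and none lower in TB, where 46.0% of all genes passed. Sox2, which neural progenitors use too, was the highest (6.32 ± 0.18, adjusted p = 1.91e-23). Mean Sox2 was 0.5634 CPM in E10.5 FLB and 0.08816 in E10.5 HLB, near or below the floor, so this size depends on the pseudocount. In ES–HLB against ES–FLB the list's largest rise was in Tdgf1 (2.52 ± 0.21, adjusted p = 5.79e-11), whose deposited ES–HLB values equal those of Nanog. Lin28a fell with stage in FLB by 5.44 ± 0.25 (adjusted p = 5.16e-05), from 435 ± 11 CPM in early FLB, and had 380 ± 61 in early HLB (SD, n = 3 each).

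The profiles of the 7 genes were last set beside those of 14438 genes over the 26 libraries, as a description only, since the libraries share groups and depth. Pearson r of log2 levels was high for Sall1 with the limb outgrowth gene Wnt5a (0.874) and with Dusp4 (0.825). For Sall2 it was highest with H1fx (0.976), Notch3 (0.967) and Lrig3 (0.962), for Sall3 with Sost (0.878), Hoxd10 (0.869) and Mphosph8 (0.859), and for Sall4 with Arg1 (0.96), Cecr2 (0.952) and Fignl2 (0.947). Zbtb16 was most like Alg13 (0.956), Cth (0.946) and Trp53 (0.942), Osr1 most like Irgq (0.983), Rnf157 (0.978) and Cntln (0.977), and Osr2 most like Gdnf (0.973), Frmd4a (0.972) and Kdm4a (0.971). Within the 7 genes r was 0.866 between Osr1 and Osr2, 0.82 between Sall2 and Osr2 and 0.791 between Sall4 and Zbtb16, and it was lowest between Sall4 and Osr1 (-0.748) and between Sall3 and Osr1 (-0.721).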

How the data were processed

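RNA-seq libraries of 9 groups were analysed, and groups and replicates came from the labels. Per the study's methods and the labels, stranded mRNA libraries were read as single ends, mapped to mm10 with HISAT2 2.0.4, counted per gene with Cuffdiff and tested with edgeR 3.16.2. The values the authors deposited are CPM that sum to 1000000 in every column of the table, and the strand setting of the counting is not given in the sources used here. Depth and floors were read from the spacing of low values, of which 94.8% to 99.2% lay within 0.1 read of whole reads, so the values were not treated as counts.

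Between libraries, CPM were brought to a common scale by the trimmed mean of log ratios, unweighted (30% of ratios and 5% of intensities trimmed). The filter kept genes that reached 1 CPM in 3 libraries (2 with the E10.5 HLBs in fits of fewer groups), and log2(CPM + 0.5) was the response in limma 3.58.1 (trend, robust) in R 4.3.3, with Benjamini-Hochberg adjustment over all genes tested and a threshold of 0.05. Comparisons of groups used those groups' libraries, and contrasts with BA, Ca and TB all 26. The 7 genes and the lists were chosen with earlier results of these data known. Alternatives were CPM as deposited, another scaling, other pseudocounts and filters, limma without trend and robust estimation, all 26 libraries in one model, a replicate block, the left-out library kept, and each library left out in turn. Named genes are the members, the 3 genes most like each, and list genes with the largest and smallest change. Levels of Pou5f1, Nanog, Lin28a, Klf4 and Dppa4 were chosen after their values were seen, as were genes named for a limit of the filter. One gene that the rule names is not reported here. Replicate numbers did not pair the libraries (r of deviations -0.0888 to 0.0999). On simulated data with 200 changed genes, 200 were recovered between the ES–LBs with 8 false calls among 13215 genes, 200 between the early buds with 14 among 12396, 196 between the E10.5 buds with 12 among 12859, and 199 for TB with 29 among 14457. Sequences and positions came from GENCODE on GRCm38.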

Additional observations from a re-analysis of the deposited data

Results flagged for a closer look

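The difference between hindlimb and forelimb differed between culture and the early buds by the test of the difference itself for the 6 genes tested in both, although Sall1 and Osr1 did not pass with the spread of all 26 libraries, and limb type and stage cannot be told apart in the early buds. On the log2 scale the values in culture minus those in the early buds were 0.36 for Sall1, -0.40 for Sall2, 1.13 for Sall3, 1.74 for Sall4, 0.88 for Zbtb16 and -0.77 for Osr1. Osr2 gave -1.14, from early bud levels near the floor. In culture, limb type and the retinoic acid treatment cannot be told apart. For Sall3 and Sall4 the early buds had lower levels in HLB and the ES–LBs higher levels in ES–HLB, and for Sall2 the reverse held. None of these early bud differences passed without early FLB replicate 2 (adjusted p = 0.085, 0.126 and 0.148 for Sall2, Sall3 and Sall4). In culture the calls of Sall2 and Sall3 were also lost when single libraries were left out, while that of Sall4 was not.

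The change from the early to the E10.5 bud differed between the limbs, by the same kind of test, for Sall2 (-0.36 in HLB minus FLB), Sall4 (1.12), Osr1 (-1.36) and Osr2 (-1.92, also from early levels near the floor).

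Signal was present in the library left out of the comparisons and kept only in an alternative, replicate 2 of the E10.5 HLBs. Outside its lost chromosomes it had 107.5 CPM of Sall2, 47.9 of Sall3, 45.3 of Sall4, 13 of Osr1 and 12.3 of Osr2. Sall3 lay within the range of the 2 libraries used, Sall2, Sall4 and Osr1 above it and Osr2 below it.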

How the results depend on the processing

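Of 2742 gene values recomputed under the alternatives, 2666 kept their direction and their side of the threshold, 48 lost a call, 15 gained one and 13 changed sign. The early hindlimb against forelimb comparison was the least stable, with 2 genes passing for CPM as deposited, 0 for limma without trend and robust estimation, 2 with the replicate number as a block, and 0 to 2 when 1 library was left out. Between the ES–LBs 4 genes passed without trend and robust estimation, and 5 to 7 with 1 library left out. With the block, Sall4 and Zbtb16 lost their calls in the early buds (adjusted p = 0.114 and 0.0921), Sall1 gained one between the E10.5 buds (0.17, adjusted p = 0.0317) and Sall3 one for stage in FLB (adjusted p = 0.0169), and the block changed no other call. Zbtb16 between the E10.5 buds gave an adjusted p of 0.0615 without trend and robust estimation. Signs changed only for values that did not pass in either fit. With CPM as deposited these were Sall1 in the stage difference between limbs (-0.088), Sall4 in ES–LBs against Ca (0.13) and Sall2 in ES–LBs against TB (0.017), and with E10.5 HLB replicate 2 kept Sall3 between the E10.5 buds (0.034). With 1 library left out, the values ranged from -0.14 to 0.12 for Sall3 between the E10.5 buds, from -0.072 to 0.078 for Sall1 in the stage difference, from -0.011 to 0.11 for Sall2 in ES–HLB against E10.5 HLB, from -0.11 to 0.10 for Sall4 in ES–LBs against Ca and from -0.04 to 0.014 for Sall2 in ES–LBs against TB. The causes were not tested. Where leaving out a library left 1 E10.5 HLB library, that library was assumed to vary like the other groups. The edgeR test on reads was not run, because the values did not give whole reads for nearly all genes in every library. Depth limits Osr2 in Ca and early FLB and Sall3 in BA, which rest on few reads.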
